A study of Homo sapiens with 16 samples.

Results

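The genes described here encode the proteins of the cytoplasmic ribosome. They were chosen by gene name, as names of the form RPL or RPS followed by a number, with RPLP0, RPLP1, RPLP2 and RPSA added. Of 60623 genes in the count tables, 84 names matched, and 3 of them (RPL39L, RPL10L and RPL3L) fell under 10 counts in at least 1 library. The paralogs RPS27L, RPL22L1, RPL26L1 and RPL7L1 were kept apart. This left 77 ribosomal protein genes, 31 of the small and 46 of the large subunit, on 21 chromosomes. The smallest count of any of them in any library was 91 and the largest 1353367, and all 77 passed the filter on low counts in both experiments. FAU and RACK1 also encode ribosomal proteins but have other names, and are given separately.

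A ribosome holds 1 copy of most of these proteins, bound to ribosomal RNA in a small subunit that reads the mRNA and a large subunit that joins amino acids. Most ribosomal protein mRNAs begin with a C followed by a run of pyrimidines, the terminal oligopyrimidine or TOP start, through which mTOR signalling and the RNA-binding protein LARP1 control their translation and stability. Ribosome production is tied to growth in blood cells, and loss of 1 copy of several of these genes, such as RPS19, RPL5 or RPL11, causes Diamond-Blackfan anaemia.

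RNA-Seq was made from MUTZ-3, a human acute myeloid leukaemia (AML) line with inv(3), in which the enhancer of another gene is moved next to EVI1, listed as MECOM. All cells grew in MEMalpha with 20% FBS, 20% medium conditioned by 5637 cells and 10 ng/ml GM-CSF. The inhibitor experiment has 10 libraries. Of these, 1 is of untreated cells (0 h), and the others follow treatment for 12, 24 and 48 h with olaparib at 10 µM, with talazoparib at 1 µM, both of which block the DNA repair enzyme PARP (PARPi), or with the vehicle DMSO. The knockdown experiment has 6 libraries of cells carrying a lentiviral pLKO.1 vector, selected with puromycin, with a non-targeting control (NTC) or with shEVI1-2531 or shEVI1-2532 against EVI1, at day 3 and day 6. Each condition was sequenced once, and the labels do not say whether libraries came from separate cultures, so that p-values measure only the spread between these libraries, which may be technical. MUTZ-3 is 1 cell line, and no primary cells were analysed here. In RNA of whole cultures, fewer cells of a type and less RNA per cell cannot be told apart.

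The libraries held 55999673 to 72681943 counts in the inhibitor and 95523038 to 120716213 in the knockdown experiment. Levels are given as CPM, counts brought to the same library total and scaled by edgeR's TMM, which was done within each experiment, so that levels are not compared between experiments. Markers of other cell types differed between libraries in both experiments, and their sums are given as CPM of the library total without TMM. The summed level of the monocyte markers CD14, LYZ, FCN1, CD163, S100A8 and S100A9 lay between 870 and 1246 CPM in the DMSO libraries and reached 8608 with olaparib and 13724 with talazoparib at 48 h, while the summed level of 5 cell cycle genes at 48 h was 1682 CPM with DMSO, 790 with olaparib and 302 with talazoparib. With shEVI1-2532 the monocyte sum was 8323 at day 3 and 8700 at day 6, against 1426 and 979 with NTC, and the sum of the progenitor markers CD34, ERG, KIT and FLT3 was 14.7 and 12.5 CPM against 362 and 834 with NTC. With shEVI1-2531 the monocyte sum was 2742 and 2338 CPM and the progenitor sum 123 and 130. The NTC progenitor sums are mostly CD34, and KIT did not follow them with shEVI1-2531. KIT had 4296 counts with NTC and 3668 with shEVI1-2531 at day 3, and 2426 and 5036 at day 6. FLT3 had at most 30 counts in a library. The cell cycle sum was 1324 and 1100 CPM at day 3 and day 6 with NTC, 792 and 725 with shEVI1-2531 and 445 and 386 with shEVI1-2532. Sums of erythroid, B cell and T cell markers lay between 2.92 and 20.5 CPM in the 16 libraries. The B cell marker MS4A1 had 0 counts in all 16 libraries. The part of this shift in cell state in the values below was not tested.

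The starts of some members and paralogs are shown first, since the TOP start is the sequence feature by which these mRNAs are known. Of the 77 genes, 62 had a promoter in the RefSeq tables (GRCh38.p14), and others, such as RPL23, RPL23A, RPL30, RPL37, RPL5, RPL7, RPL8, RPS15A, RPS2 and RPS20, are named only. Each window holds 20 bases before and 10 from the annotated start, 5′ to 3′ on the strand of the gene, and capitals mark the unbroken run of C and T from the start up to the end of the window. Where a gene has more than 1 listed promoter, as RPS19 and RPL11 do, one with such a run was preferred. Every member shown holds the run, and no member without it is shown. The first 6 are some of the members on which the results turn.

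RPS19 (chr19:41860235-41860264, plus strand): gcccgggaaaccccgtcgttCCCTTTCCCC

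RPL12 (chr9:127451397-127451426, minus strand): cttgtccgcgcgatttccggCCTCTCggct

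RPL11 (chr1:23691786-23691815, plus strand): tcggccggaagctccgctttCTCTTCCTgc

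RPS14 (chr5:150449730-150449759, minus strand): tcgctccgccccctcccactCTCTCTTTCC

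RPL27A (chr11:8682772-8682801, plus strand): gagacttggcgaaggccttcCTTTTTCgtc

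RPLP0 (chr12:120201102-120201131, minus strand): ggcacgcgcgggcgcgaggcCCTTCTCTCg

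The next 7 set 3 members beside their paralogs, and show 1 further paralog.

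RPS27 (chr1:153990742-153990771, plus strand): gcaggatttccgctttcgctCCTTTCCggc

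RPS27L (chr15:63157468-63157497, minus strand): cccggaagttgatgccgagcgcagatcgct

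RPL26 (chr17:8383184-8383213, minus strand): accggaagcagcgtgtagttCTCTTCCCTT

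RPL26L1 (chr5:172958709-172958738, plus strand): caggcagtcttccaggggtcggcgaacgaa

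RPL22 (chr1:6199586-6199615, minus strand): ctgcgtagttcgctcacctcCCTTTCTaac

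RPL22L1 (chr3:170870186-170870215, minus strand): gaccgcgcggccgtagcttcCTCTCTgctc

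RPL7L1 (chr6:42879596-42879625, plus strand): cgcgccggaagtgcggcgccgtagctagga

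A TOP start, taken as a C at an annotated start followed by at least 4 bases that are C or T on the strand of the gene, was held by 46 of the 62 members (74.2%) and by 1404 of 27305 genes with a promoter (5.14%). A gene counts here if any of its promoters has the start. Of the 77 promoters of these 62 genes, 46 (59.7%) had it, and of all 35116 promoters 1429 (4.07%). Small subunit genes (18 of 24) and large subunit genes (28 of 38) held it at like shares. RPL10A, RPL15, RPL17, RPL19, RPL27, RPL3, RPL32, RPL4, RPL6, RPL9, RPS15, RPS26, RPS28, RPS29, RPS4X and RPS7 had no such start in their window, which says only that these letters are not at the listed position. Among other TOP mRNAs, which encode translation factors such as EEF2 and PABPC1, 12 of 13 held it, against 4 of 53 genes for ribosome assembly factors and 6 of 69 genes for mitochondrial ribosomal proteins. RPL22L1 held it and RPS27L, RPL26L1 and RPL7L1 did not.

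Levels of different genes were compared per kilobase (kb) of exon, with exon lengths from GENCODE 29. RPS12, RPS18, RPL13A and RPS6 had the highest mean levels in both experiments and in the same order. RPS12 stood at 3431 CPM per kb in the inhibitor and 4162 in the knockdown libraries, and RPS6 at 2414 and 2960. RPL22, RPL17, RPS10 and RPL36A were among the lowest. RPL22, an RNA-binding protein of the large subunit that is dispensable for translation in many cells, had 32.2 and 35.9 CPM per kb, and RPL17 18.3 and 19.7. RPS10 had 1.14 and 0.881 and RPL36A 0.718 and 0.539, and they lay under all other members. RPL17, RPS10 and RPL36A overlap the readthrough genes RPL17-C18orf32, RPS10-NUDT3 and RPL36A-HNRNPH2, and 79.6% of the counts of RPS10 with its named pseudogenes lay on the pseudogenes (RPL36A 37.7%, RPS2 15.2%). Values of these genes are therefore uncertain, as are smaller differences between members. Another listed gene overlaps 56 of the 77, 28 hold small nucleolar RNAs, 76 have named pseudogenes with a median of 10 a gene, and the strand setting of the counting is not given in the sources used here. All 1136 named ribosomal protein pseudogenes together held 0.135 to 0.288% of the counts of a library.

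**Figure D1:**
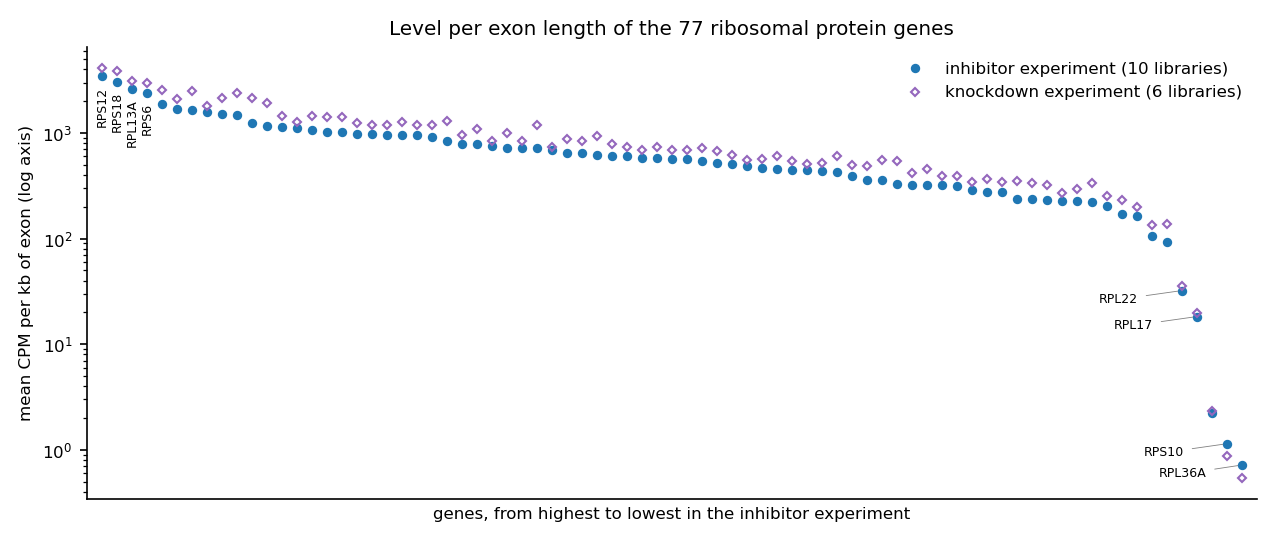
Mean level of each of the 77 ribosomal protein genes in CPM per kb of exon on a log axis, ordered by the inhibitor experiment (circles, mean of 10 libraries), with the knockdown experiment as diamonds (mean of 6 libraries) and 8 genes named. RPS12 leads in both, and RPS10 and RPL36A, at 1.14 and 0.718 CPM per kb in the inhibitor libraries, lie at the low end.

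The share of all counts on the 77 genes differed between hours in culture. It was 12.3% in untreated cells, and 12.4% with DMSO at 12 h, 14.8% at 24 h and 17.8% at 48 h. With olaparib it was 12.6%, 14.0% and 21.7%, and with talazoparib 12.5%, 16.6% and 22.0% at the same hours. The inhibitor libraries of 12 h lay close to DMSO, those of 24 h on either side of it, and both of 48 h above it. In the knockdown experiment the share was higher at day 3 than at day 6 with each vector, at 24.0% and 16.8% with NTC, 24.2% and 16.9% with shEVI1-2531 and 23.2% and 18.4% with shEVI1-2532. Each share comes from 1 library. Mitochondrial transcripts, a sign of RNA quality, held 1.77 to 3.37% of counts in the inhibitor experiment. In the knockdown experiment they held 2.5% and 3.4% at day 3 and day 6 with NTC, 3.0% and 3.0% with shEVI1-2531 and 4.0% and 4.2% with shEVI1-2532, which was the highest on each day.

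**Figure D2:**
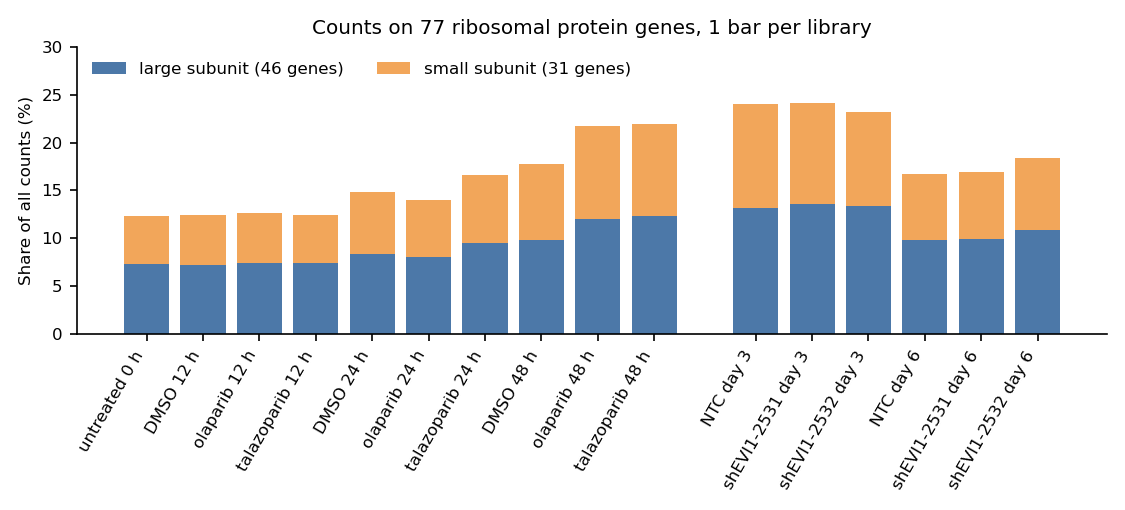
Share of all counts, in percent, on the 46 large subunit genes (blue) and the 31 small subunit genes (orange) in each of the 16 libraries, 1 bar a library. Bars stand at 12.4 to 17.8% over the DMSO series, at 21.7 and 22.0% with the inhibitors at 48 h, and are higher at day 3 than at day 6 with all 3 vectors.

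The first comparison asks how the genes differed between hours, over the DMSO, olaparib and talazoparib libraries together. Its values therefore also hold changes over time with the inhibitors, and ratios within each treatment are given below. Between 12 and 48 h, 70 of the 77 ribosomal protein genes rose and none fell, where 22.1% of 17218 genes tested rose and 21.3% fell. The members' median log2 fold change was 0.88, against 0.01 over all genes. RPS15A (1.33 ± 0.17 SE, edgeR adjusted p = 0.00219), RPS3A (1.26 ± 0.17), RPL39 (1.34 ± 0.18), RPL10A (1.17 ± 0.16) and RPS14 (1.32 ± 0.19) had the smallest p. The members that did not pass included RPL22, RPL36A, RPL6, RPLP0, RPS10 and RPS2. The count was 45 without olaparib at 48 h and stayed at 49 or more without any other single library. Between 12 and 24 h no member passed edgeR's test, as no gene did (0% higher and 0% lower), with 22 members and 3638 of all genes at an unadjusted p under 0.05, 0 members by DESeq2 and a members' median of 0.29, but 24 members passed without DMSO at 48 h.

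The vehicle alone showed a difference in the same direction. RPS3A, a small subunit protein at the mRNA exit, had 1691 CPM with DMSO at 12 h, 2101 at 24 h and 3153 at 48 h, and untreated cells 1359. RPS14, whose loss takes part in the anaemia of a myelodysplastic syndrome, had 1859, 2570 and 3359 CPM with DMSO. The ratio of DMSO at 48 h to DMSO at 12 h was above 0 on the log2 scale for 76 of 77 members, with a median of 0.49 (RPS3A 0.90, the highest). The median of the same ratio was 1.01 with olaparib and 1.12 with talazoparib, each with 76 members above 0. DMSO at 12 h and untreated cells differed by a median of -0.06. Hours in the vehicle and hours since plating cannot be told apart, since only 0 h was sampled untreated.

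RPLP0, the stalk protein of the large subunit that recruits elongation factors, is used as a reference gene in many assays and was among the members that moved least between these hours. It had 3880, 3890 and 4426 CPM with DMSO at 12, 24 and 48 h, 3959, 3708 and 4329 with olaparib, and 3974, 3933 and 4477 with talazoparib. Its difference between 48 and 12 h was 0.16 ± 0.12 (edgeR adjusted p = 0.302). Its partners in the stalk, RPLP1 (0.51 ± 0.16) and RPLP2 (0.46 ± 0.15), passed the test. RPSA, which doubles as a laminin receptor, stood at 2787, 3155 and 3800 CPM with DMSO and rose by 0.46 ± 0.12. In the knockdown experiment RPLP0 was not steady and was among the members called lower at day 6 than at day 3. It had 6055 and 4357 CPM at day 3 and day 6 with NTC, 7366 and 4894 with shEVI1-2531, and 6460 and 5175 with shEVI1-2532.

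Next, the inhibitors were set against DMSO of the same hour, to see what PARP inhibition does in these cells. No ribosomal protein gene passed the test of the mean effect of both inhibitors over the 3 time points. In this fit a change of the effect between hours counts as error. The absence of calls, here or for each inhibitor alone, therefore does not show that there was no effect. In that test 3.16% of genes were higher and 1.01% lower, 10 members and 6047 of all genes had an unadjusted p under 0.05, and DESeq2 called 1 member lower. Olaparib alone gave 0 members (1 at an unadjusted p under 0.05 of 3161 genes, 0 by DESeq2), with 0.639% of genes higher and 0% lower. Talazoparib alone gave 0 as well (14 of 6245 genes at an unadjusted p under 0.05, 2 by DESeq2, of which RPL28 was higher), with 3% of genes higher and 0.999% lower. For talazoparib against olaparib, given at different doses, it was 0 (0 of 354, 0 by DESeq2), with 0% of genes in either direction. The members' median was 0.20 for the mean effect, 0.13 for olaparib and 0.26 for talazoparib, against -0.01, -0.01 and -0.00 over all genes, and it was 0.03 without the 48 h libraries.

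The single ratios show where this median came from. At 12 h, 48 of 77 members were above DMSO with olaparib and 36 with talazoparib, with medians of 0.03 and -0.01. At 24 h the inhibitors lay on opposite sides, with 10 members above DMSO with olaparib (median -0.11) and 72 with talazoparib (median 0.18). At 48 h, 73 were above with olaparib (median 0.53, quartiles 0.38 and 0.65, up to 0.99 for RPS19) and 71 with talazoparib (median 0.63, from -0.61 for RPL36A to 1.13 for RPL28). The subunits had like medians at 48 h, 0.54 (small) and 0.53 (large) with olaparib and 0.60 and 0.64 with talazoparib. Scaled to the library total only, all genes had medians of -0.19 and -0.27 at 48 h, and the members 0.34 and 0.35.

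**Figure D3:**
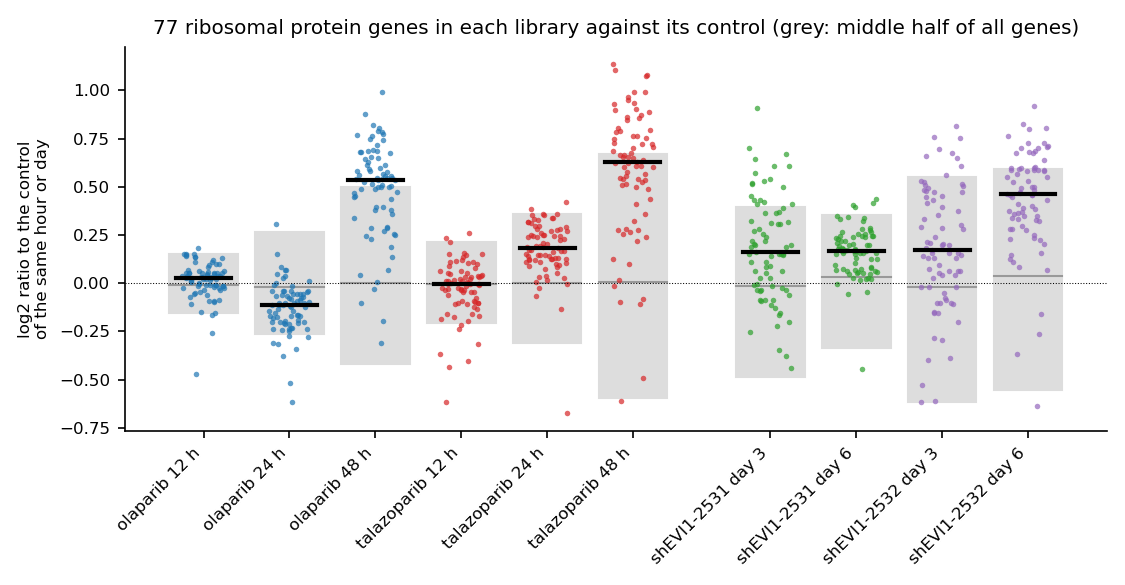
Log2 ratio of each of the 77 ribosomal protein genes in a treated library to the control of the same hour or day, 1 point a gene, with the members' median as a black line and the interquartile range and median of all genes in grey. The points lie around 0 at 12 h and mostly above it at 48 h (73 and 71 of 77), and in the knockdown libraries the medians of 0.16 to 0.46 hold for TMM scaling, while library total scaling puts all of them but shEVI1-2532 at day 6 at or below 0 with all genes lower still.

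Whether the inhibitor effect changed with time was tested as a slope on log2 hours, the change in the log2 ratio for each doubling of hours as the mean of both inhibitors. For 20 of 77 members the slope was above 0 and for none below, against 10% and 9.82% of all genes, with a members' median of 0.27 and -0.01 over all genes. The 20 were 6 small and 14 large subunit genes. Hours lie at equal steps on this scale, so that the size of the slope rests on the 12 and 48 h libraries and does not show a steady change. Without DMSO, olaparib or talazoparib at 24 h the members' median stayed at 0.27 each time. The fit leaves 2 residual degrees of freedom, and the count ran from 0 to 54 when single libraries were left out (0 without DMSO, or talazoparib, at 12 h and without DMSO, or olaparib, at 48 h, 1 without talazoparib at 48 h, 7 without DMSO and 13 without talazoparib at 24 h, 44 without olaparib at 24 h and 54 without olaparib at 12 h). It was 3 with scaling to the library total. For the slope, edgeR's p-values followed from a spread shared over genes, with nearly equal SE of 0.134 to 0.137 for the 5 members named below. The spread of each gene's own libraries thus counted for little. In the test of the mean effect p rested more on it, so that the 20 calls here and the 0 calls there are not like for like.

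RPS19, at chr19:41860255-41872925 on the plus strand (GRCh38), is needed to mature the small subunit and is the gene most often mutated in Diamond-Blackfan anaemia. It had 1660, 1861 and 1957 CPM with DMSO at 12, 24 and 48 h, 1774, 1852 and 3894 with olaparib, and 1827, 2434 and 4216 with talazoparib. Both inhibitor libraries of 48 h thus held the highest levels of the series, and those of 12 h were close to DMSO. Its slope was 0.46 ± 0.14 (edgeR adjusted p = 0.00695), ahead of RPL31 (0.43, 0.0104), RPL34 (0.42, 0.0128), RPL27A (0.42, 0.0138) and RPL26 (0.41, 0.0141), all large subunit proteins. RPL27A had 1967, 2719 and 3494 CPM with DMSO, 1983, 2418 and 5969 with olaparib and 1905, 3293 and 6658 with talazoparib. With both inhibitors its level at 48 h was above and at 12 h near that of DMSO.

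RPL5 and RPL11 join the smallest ribosomal RNA of the large subunit in a particle that can also bind MDM2, the ubiquitin ligase of p53, and they differed here. RPL11 had 1572, 1514 and 1682 CPM with DMSO, 1604, 1684 and 2450 with olaparib, and 1675, 1940 and 3115 with talazoparib. RPL5 had 2208, 2827 and 3821 with DMSO, 2115, 2400 and 3942 with olaparib, and 1974, 2972 and 3549 with talazoparib. RPL11 was thus highest with both inhibitors at 48 h, where the log2 ratios of RPL5 to DMSO were 0.04 and -0.11. The slopes were 0.32 ± 0.13 (edgeR adjusted p = 0.0786) and 0.03 ± 0.13 (0.913), and their difference was not tested. RPLP0 and RPSA were likewise near DMSO at 48 h, with log2 ratios of -0.03 and 0.00 with olaparib and 0.02 and -0.08 with talazoparib.

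RPL22 is needed for the development of T lymphocytes. It had 136, 136 and 164 CPM with DMSO, 151, 168 and 144 with olaparib and 136, 169 and 154 with talazoparib, so that it was above DMSO at 24 h and below it at 48 h with both inhibitors. RPL36A and RPL17 were among the 3 members farthest from the members' median in this experiment, below it in all 6 ratios. Their counts are among the smallest of the members, and RPL36A had a log2 ratio of -0.61 with a 95% half-width of 0.360 from counting error with talazoparib at 48 h.

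In the knockdown experiment the targeted gene was checked first. MECOM had 5123 counts with NTC, 1171 with shEVI1-2531 and 452 with shEVI1-2532 at day 3, and 4825, 2114 and 405 at day 6. The fitted log2 fold changes were -1.34 and -3.04, both called. The question was what loss of EVI1 does to expression in these cells.

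With shEVI1-2532, 33 of 77 ribosomal protein genes were higher than with NTC and none lower, over both days, against 21.2% and 19.9% of 18606 genes tested. The members' median was 0.31 and that of all genes -0.00. The higher members were 24 of 46 large and 9 of 31 small subunit genes, with subunit medians of 0.37 and 0.21. Scaled to the library total only, 10 members were higher and 9 lower, with a members' median of 0.00 and an all-gene median of -0.30, so that the distance between members and all genes stayed at 0.30. The count was 7 without NTC at day 3, 13 without NTC at day 6 and 49 without shEVI1-2532 at day 3. Without the day in the model it was 0, with 6 members at an unadjusted p under 0.05. The monocyte, progenitor and cell cycle sums and the mitochondrial share moved with shEVI1-2532 too, and their part in the result was not tested.

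RPL12, which sits at the base of the stalk of the large subunit, had the smallest p, at chr9:127447674-127451406 on the minus strand (GRCh38). It had 4371 CPM with NTC, 5412 with shEVI1-2531 and 7387 with shEVI1-2532 at day 3, and 2796, 3308 and 5289 at day 6. Its level with shEVI1-2532 was the highest on each day, and the difference was 0.84 ± 0.13 (edgeR adjusted p = 0.000317). RPS2 (0.79, 0.000804), RPL11 (0.75, 0.000829), RPS27 (0.73, 0.000972) and RPL13 (0.69, 0.00188) followed. RPL11 had 2609, 4084 and 4230 CPM at day 3 and 1983, 2684 and 3450 at day 6 in the order NTC, shEVI1-2531 and shEVI1-2532. RPS27 had 1943, 2964 and 3069 at day 3 and 1332, 1775 and 2326 at day 6. For both genes the library of each shRNA exceeded NTC on each day. RPL5 (0.12 ± 0.13), RPSA (0.06 ± 0.14), RPLP0 (0.17 ± 0.13), RPL39 (0.17 ± 0.15) and RPS6, the target of the S6 kinases (0.17 ± 0.14), did not pass, with edgeR adjusted p from 0.320 to 0.778.

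With shEVI1-2531, 7 members were higher and none lower, against 9.49% and 7.9% of all genes, so that the share of members was near the background. The marker sums moved with this shRNA as well, and their part in the result was not tested. They were RPL11 (0.54, edgeR adjusted p = 0.0150), RPS27 (0.52, 0.0197), RPS28 (0.60, 0.0198), RPL23 (0.49, 0.0221), RPS2 (0.51, 0.0253), RPS19 and RPLP2. The count was 0 without NTC or shEVI1-2531 at day 3, 1 without NTC at day 6, 15 without shEVI1-2531 at day 6, 19 without shEVI1-2532 on either day, and 0 with scaling to the library total. The comparison shares its NTC libraries with that of shEVI1-2532. RPS28, the small subunit protein beside the mRNA exit, had 838 CPM with NTC, 1573 with shEVI1-2531 and 1475 with shEVI1-2532 at day 3, and 782, 952 and 1280 at day 6. Between the shRNAs, 4 members were higher with shEVI1-2532 and none lower, against 12.2% and 12% of all genes, namely RPL12 (0.56, edgeR adjusted p = 0.00843), RPL15 (0.46, 0.0238), RPL7A (0.45, 0.0252) and RPL24 (0.39, 0.0496). That count was 1 without NTC at day 3 or day 6, 2 without shEVI1-2531 at day 3 and 19 without shEVI1-2532 at day 3. Without shEVI1-2531 at day 6 it was 0 higher and 1 lower, without shEVI1-2532 at day 6 it was 1 higher and 3 lower, and with library total scaling it was 1 higher and 4 lower.

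Library by library, the members' median log2 ratio to NTC was 0.16 and 0.17 at day 3 and day 6 with shEVI1-2531, and 0.17 and 0.46 with shEVI1-2532. The number of members above NTC was 54, 73, 56 and 73 in that order. Relative to the median of all genes, which moved to between -0.31 and -0.14 under library total scaling, the numbers above it were 57, 68, 56 and 73. Under that scaling the members' medians were -0.01, -0.00, -0.08 and 0.11. RPL36A, RPS10 and RPS28 lay farthest from the members' median, RPS28 above it with log2 ratios of 0.91 and 0.28 with shEVI1-2531 and 0.82 and 0.71 with shEVI1-2532.

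Between day 3 and day 6, 66 members fell and none rose, where 11.9% of genes were lower and 11.9% higher, with a members' median of -0.61 against 0.03 over all genes. RPS15A (-0.96 ± 0.11), RPS3A (-1.05 ± 0.12), RPS29 (-0.96 ± 0.12), RPL24 (-0.88 ± 0.11) and RPL27 (-0.93 ± 0.11) had the smallest p, each with an edgeR adjusted p of 0.00157. RPS3A had 4005 CPM with NTC, 3434 with shEVI1-2531 and 3793 with shEVI1-2532 at day 3, and 1558, 1699 and 2199 at day 6. Every library of day 3 was above every library of day 6. The members' median was -0.69 with NTC, -0.74 with shEVI1-2531 and -0.48 with shEVI1-2532, and 75, 77 and 75 members were lower at day 6. RPL10, RPL13, RPL22, RPL28, RPL3, RPL36A, RPL4, RPS10, RPS2 and RPS28 were among those that did not pass. The day, the time since transduction and since selection cannot be told apart.

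The time comparisons of both experiments, which share no library, mostly called the same genes, in opposite directions. Of the 70 members that rose from 12 to 48 h, 64 fell from day 3 to day 6 (91.4% of the first and 97.0% of the second list). Most members passed in each, so that a large overlap follows from the counts. RPL22, RPL36A, RPS10 and RPS2 were among those that passed in neither. Of the 20 members with a rising inhibitor slope, 12 were also higher with shEVI1-2532 (60% of the first and 36.4% of the second list). Since 33 of the 77 members were higher with shEVI1-2532, an overlap of some size follows from the counts here too. The 12 were RPL24, RPL26, RPL28, RPL31, RPL34, RPL35A, RPL37, RPL37A, RPL8, RPS19, RPS28 and RPS9.

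Some members kept their place within the family. RPL12, RPL23, RPL28, RPL37, RPS19, RPS27, RPS28 and RPS9 lay above the members' median in all 10 ratios to the control of the same hour or day. The members at or below it in all 10 included RPL17, RPL35, RPL36A, RPL5, RPS10, RPS16, RPS6 and RPS7. The ratios to 1 control library are not independent of each other. RPL28, a large subunit protein of the first group, had 1297 CPM with DMSO, 2293 with olaparib and 2848 with talazoparib at 48 h, and 1572, 1784 and 2331 with NTC, shEVI1-2531 and shEVI1-2532 at day 6. RPS6, of the second, had 8618, 10524 and 10193 CPM and 5121, 5394 and 6584.

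**Figure D4:**
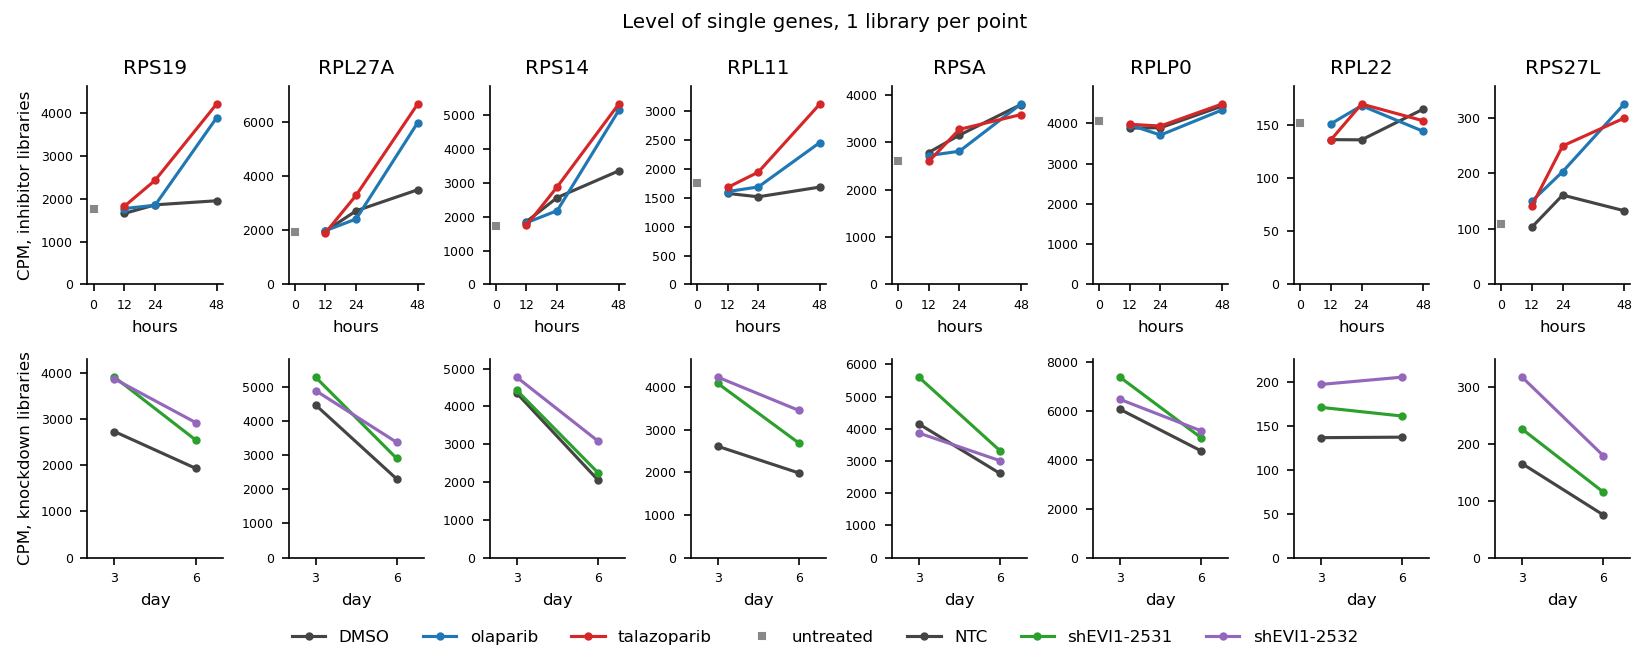
CPM of 8 genes, 1 library a point, against hours in the inhibitor experiment (top; untreated, DMSO, olaparib, talazoparib) and against the day in the knockdown experiment (bottom; NTC, shEVI1-2531, shEVI1-2532). RPS19 and RPL27A part from DMSO at 48 h, RPLP0 stays between 3708 and 4477 CPM in all inhibitor libraries, and RPSA lies near DMSO at 48 h with both inhibitors.

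Members with and without the TOP start are given side by side. With shEVI1-2532, 21 of 46 members with the start and 5 of 16 without it were higher, at medians of 0.33 and 0.27. For the inhibitor slope it was 16 of 46 and 2 of 16, at medians of 0.30 and 0.26, and for day 6 against day 3, 40 of 46 and 13 of 16 fell, at -0.67 and -0.60. From 12 to 48 h, 42 of 46 and 15 of 16 rose, at medians of 0.91 and 0.75. With shEVI1-2531 it was 4 of 46 and 1 of 16, at 0.18 and 0.13. For the mean inhibitor effect it was 0 in both groups. These are counts without a test.

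The paralogs were followed apart. RPS27L, a copy of RPS27 that p53 induces, had 103, 161 and 133 CPM with DMSO at 12, 24 and 48 h, 150, 203 and 325 with olaparib and 142, 249 and 299 with talazoparib, and 110 in untreated cells. It was above DMSO in all 6 inhibitor libraries, already at 12 h, where its log2 ratios were 0.54 ± 0.044 and 0.46 ± 0.044 (95% half-width of counting error) and those of RPS27 0.15 at most. Its mean inhibitor effect was 0.73 ± 0.16 (edgeR adjusted p = 0.0471), the only one of these names that passed that test. It passed in 10 of 19 alternatives, with adjusted p from 0.0015 to 0.34 by edgeR or DESeq2, and without the 24 h libraries no gene of the 17218 passed, with 2281 at an unadjusted p under 0.05. In the knockdown libraries it had 166, 227 and 318 CPM at day 3 and 75.3, 116 and 180 at day 6 in the order NTC, shEVI1-2531 and shEVI1-2532, with differences of 0.53 ± 0.13 (edgeR adjusted p = 0.0150) and 1.10 ± 0.13 (4.48e-05). The p53 targets MDM2 and CDKN1A rose too, by 1.35 ± 0.12 and 1.87 ± 0.23 for the mean inhibitor effect, by 1.19 ± 0.16 and 1.34 ± 0.13 with shEVI1-2531, and by 0.83 ± 0.16 and 1.58 ± 0.13 with shEVI1-2532.

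RPL7L1, a paralog of RPL7 that works in ribosome assembly, was lower. It had 183, 88.6 and 77.2 CPM at day 3 and 163, 123 and 78.6 at day 6 with NTC, shEVI1-2531 and shEVI1-2532, with differences of -0.72 ± 0.16 (edgeR adjusted p = 0.00805) and -1.15 ± 0.16 (0.000117). The mean inhibitor effect was -0.38 ± 0.10 and did not pass (edgeR adjusted p = 0.0579). RPL22L1 parted the shRNAs. It had 133, 147 and 59.7 CPM at day 3 and 57.6, 75.9 and 37.7 at day 6, and was lower with shEVI1-2532 than with NTC (-0.88 ± 0.15) and than with shEVI1-2531 (-1.15 ± 0.15, edgeR adjusted p = 0.000276). RPL22, the gene it resembles, went the other way with shEVI1-2532, at 137, 171 and 197 CPM at day 3 and 137, 161 and 205 at day 6 (0.56 ± 0.12, edgeR adjusted p = 0.00370). RPL26L1 passed in neither knockdown comparison (0.03 ± 0.16 and -0.33 ± 0.16), and RPL36AL, a copy of RPL36A, was higher with shEVI1-2532 (0.65 ± 0.13). Of the ribosomal proteins with other names, RACK1 (0.75 ± 0.13) and FAU (0.50 ± 0.13) were higher with shEVI1-2532, and neither passed with shEVI1-2531 (0.25 ± 0.13 and 0.17 ± 0.13).

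Other genes of ribosome production gave other counts. Of 62 genes for ribosome assembly, 48 fell and 2 rose from 12 to 48 h (median -0.81, with BOP1 at -1.44 ± 0.14 and RRS1 at -1.31 ± 0.13), where 70 of 77 ribosomal protein genes rose. These values are over the DMSO and inhibitor libraries together, where 21.3% of all genes fell and 22.1% rose. For the mean inhibitor effect 9 of the 62 fell (median -0.44), among them POLR1C, a subunit of RNA polymerase I and III (-0.56 ± 0.10), and NOP16 (-0.56 ± 0.10), and for the slope 15 fell (median -0.23), led by UTP20 (-0.92 ± 0.13) and DDX10 (-0.54 ± 0.13). With shEVI1-2532, 26 fell and 4 rose (median -0.31), with LTV1 (-1.66 ± 0.18), an export factor of the small subunit, and GNL3 (-1.10 ± 0.14) lower and RRP12 (0.89 ± 0.15) and EIF6 (0.65 ± 0.13) higher. With shEVI1-2531 it was 7 and 3. Of all genes, 1.01% fell for the mean inhibitor effect and 9.82% for the slope. With shEVI1-2532, 19.9% of all genes fell and 21.2% rose, and with shEVI1-2531 7.9% fell and 9.49% rose.

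Of 19 other TOP mRNAs, 12 rose and none fell with shEVI1-2532 (median 0.49), led by the poly(A) binding protein PABPC1 (0.83 ± 0.13) and the elongation factor EEF2 (0.83 ± 0.13). PFDN5 (0.65 ± 0.13) and TPT1 (0.62 ± 0.14), the 2 with the smallest p among those above 0, had rising inhibitor slopes. HNRNPA1 (-0.33 ± 0.13) and EIF4B (-0.24 ± 0.13) of this list lay below 0 and did not pass. Slopes rose for 10% and fell for 9.82% of all genes. From 12 to 48 h, 10 rose and 1 fell (median 0.42), and from day 3 to day 6, 11 fell and 3 rose. Of 77 genes for mitochondrial ribosomal proteins tested, 53 fell from day 3 to day 6 (median -0.50), but from 12 to 48 h 18 rose and 13 fell (median 0.07) and with shEVI1-2532 6 rose and 11 fell, MRPL51 by -1.47 ± 0.16. Over all genes, 22.1% rose and 21.3% fell from 12 to 48 h, and 11.9% fell and 11.9% rose from day 3 to day 6. With shEVI1-2532, 21.2% rose and 19.9% fell. The mitochondrial counts from 12 to 48 h are near these shares, and those with shEVI1-2532 are below them. For the mean inhibitor effect MRPL48 was the only gene of this list to pass (-0.47 ± 0.10, edgeR adjusted p = 0.0461). MRPS26 (-0.52 ± 0.12, 0.0507) and MRPL52 (0.30 ± 0.15, 0.183) did not. Of all genes, 3.16% rose and 1.01% fell in that test. Of 16 genes that govern TOP mRNAs, only the 2 with the smallest p in each direction are given, which do not show the direction of the list. SESN1 (0.71 ± 0.12) and SESN2 (0.78 ± 0.14) rose and DEPTOR (-0.64 ± 0.13) fell with the inhibitors, and RHEB (-0.31 ± 0.09, edgeR adjusted p = 0.0640) did not pass. MTOR (-1.63 ± 0.16) and DEPTOR (-1.96 ± 0.25) fell and SESN1 (1.12 ± 0.13) and EIF4EBP2 (0.97 ± 0.14) rose with shEVI1-2532. Of 18 genes of Diamond-Blackfan anaemia, all of them members, 16 rose from 12 to 48 h, 15 fell from day 3 to day 6, 10 were higher with shEVI1-2532, 4 with shEVI1-2531, and 5 had a rising inhibitor slope. Of all 77 members these numbers were 70, 66, 33, 7 and 20. Of all genes, 22.1% rose from 12 to 48 h, 11.9% fell from day 3 to day 6, 21.2% were higher with shEVI1-2532, 9.49% with shEVI1-2531, and 10% had a rising slope.

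**Figure D5:**
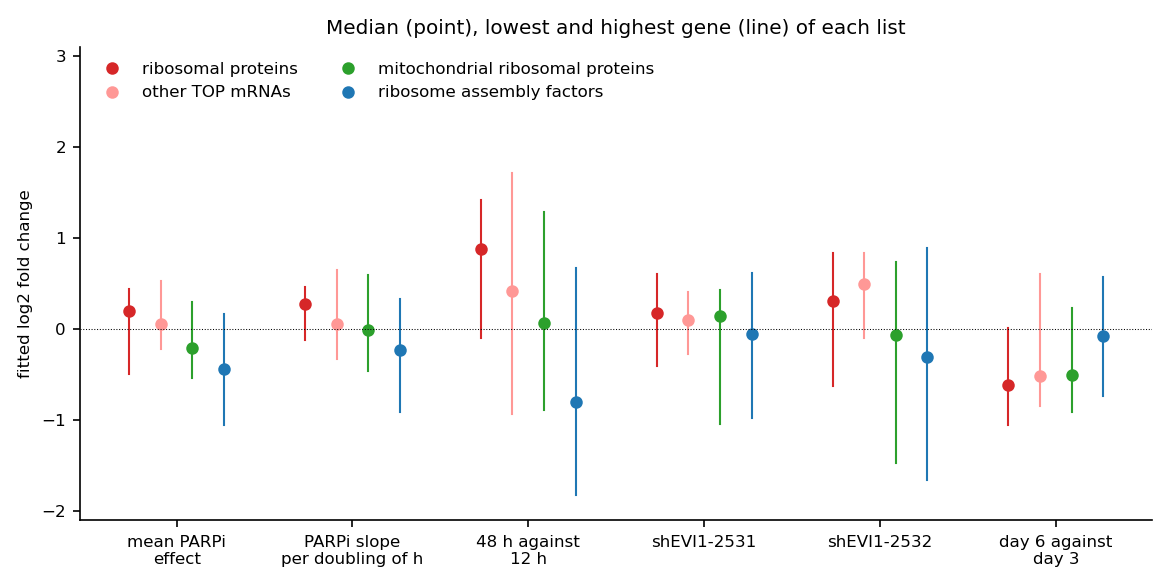
Fitted log2 fold change of 4 gene lists in 6 comparisons, with the median as a point and the line from the lowest to the highest gene (77 ribosomal protein, 19 other TOP, 77 mitochondrial ribosomal protein and 62 assembly genes; the slope is for each doubling of hours). From 12 to 48 h, over DMSO and inhibitor libraries together, the medians of ribosomal protein genes (0.88) and assembly genes (-0.81) lie on opposite sides of 0. With shEVI1-2532 the members' 0.31 becomes 0.00 when counts are scaled to the library total.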

How the data were processed

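RNA-Seq of 16 MUTZ-3 libraries was used. RNA was extracted with RNeasy Plus and made into TruSeq Stranded mRNA libraries, sequenced as paired reads of 100 bases. The submitters' processing notes name STAR, Picard and featureCounts and the build GRCh38 (hg38), with no version. The authors deposited raw counts per gene, whole numbers with no normalization, for 60623 genes. They also deposited TPM, which were found to follow from these counts over whole gene spans, introns included, and were used only as a check. Groups come from the sample labels. Members and lists were chosen with earlier results of these data known.

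Genes with 10 or more counts in at least 3 of the 9 DMSO and inhibitor libraries (17218), or in 2 or more of the 6 libraries of the knockdown (18606), were tested with edgeR 4.0.16 (quasi-likelihood F-test, TMM, two-sided) in R 4.3.3, with 1 term a time point or day and 1 an inhibitor or shRNA. Residual degrees of freedom were 4, 2 for the slope on log2 hours and 2 for the knockdown. edgeR shares the spread between genes, most strongly for the slope, so that p-values do not rest on each gene's own libraries alone. P-values were adjusted after Benjamini-Hochberg over all genes tested, with a threshold of 0.05. The untreated library entered no fit. The comparisons of hours and of days were added after seeing the data. The named genes are 12 members of known function, the 5 with the smallest p in each fit and direction, the 5 highest and lowest per kb, the 3 farthest from the members' median in each experiment, paralogs, ribosomal proteins with other names, and 2 a direction of each other list. RPL28, and the members named for lying on 1 side of the members' median or for passing in 2 comparisons, were chosen after their values were seen.

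Single-library ratios carry no p-value, and their 95% intervals cover counting error only. A level of 3 counts is 0.0249 to 0.0536 CPM. The fits were tested on simulated counts with known changes. Alternatives used DESeq2 1.42.0, other scalings, other filters and left-out libraries. Plots were made with Python 3.11.15 and matplotlib 3.10.9. RNA-Seq only was analysed here, and some genes that the counts include are not reported by name.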

Additional observations from a re-analysis of the deposited data

Results flagged for a closer look

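Inhibitor effects that differed between hours, by the test of the slope itself, were found for 20 of 77 ribosomal protein genes, against 10% of all genes. The count was 0 without DMSO or talazoparib at 12 h and without DMSO or olaparib at 48 h, and 3 with scaling to the library total. The 5 with the smallest p were RPS19 (0.46 for each doubling of hours on the log2 scale), RPL31 (0.43), RPL34 (0.42), RPL27A (0.42) and RPL26 (0.41), and the paralog RPS27L had a slope of 0.36, which was -0.010 without DMSO at 48 h. All rest on 1 library a condition, and the monocyte marker sum rose over the same libraries, to 8608 and 13724 CPM at 48 h against 1171 with DMSO. Its part in the slopes was not tested.

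Effects that differed between the shRNAs were found for 4 of 77 members by edgeR's test of that difference, fewer than the 12.2% of all genes that were higher with shEVI1-2532 in it. They were RPL12 (0.56), RPL15 (0.46), RPL7A (0.45) and RPL24 (0.39), all higher with shEVI1-2532. The count was 0 higher and 1 lower without shEVI1-2531 at day 6, and 1 higher and 3 lower without shEVI1-2532 at day 6. Of the genes kept apart, RPS27L (0.56), RPL36AL (0.52) and RACK1 (0.51) were higher and RPL22L1 lower (-1.15) with shEVI1-2532. MECOM itself was lower with shEVI1-2532 than with shEVI1-2531, by -1.70 ± 0.20. Depth of knockdown and other differences between the shRNAs cannot be told apart.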

How the results depend on the processing

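Of 185 alternative counts of changed members, 138 stayed within 1.5 times the reported count and 47 did not. The 138 include comparisons with a reported count of 0, where a count that stayed at 0 is taken as unchanged. They therefore do not show that the counts of the slope or the shRNAs are stable. Scaled to the library total only, the mean inhibitor effect gave 1, the slope 3, shEVI1-2532 19 (10 higher and 9 lower) and shEVI1-2531 0, and shEVI1-2532 against shEVI1-2531 gave 1 higher and 4 lower. With no filter on low counts, the mean effect gave 3, talazoparib 6 and shEVI1-2531 15. DESeq2 gave 1 for the mean effect and 2 for talazoparib. Without the day, shEVI1-2532, shEVI1-2531 and their difference gave 0 each, and with only NTC and shEVI1-2531 in the fit shEVI1-2531 gave 22. At a threshold of 0.01 the slope gave 1, shEVI1-2531 0 and the difference of the shRNAs 1. Leaving out libraries moved the count from 0 to 1 for the mean effect, 0 to 3 for talazoparib, 0 to 54 for the slope, 7 to 49 for shEVI1-2532, 0 to 19 for shEVI1-2531, 1 to 19 for their difference, 0 to 24 for 24 against 12 h (24 without DMSO at 48 h), 45 to 72 for 48 against 12 h and 55 to 69 for day 6 against day 3. Olaparib, and talazoparib against olaparib, stayed at 0.

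The members' median ratio under library total scaling was -0.075 and 0.34 with olaparib at 24 and 48 h, 0.16 and 0.35 with talazoparib, -0.0076 and -0.0021 with shEVI1-2531 at day 3 and day 6, and -0.082 and 0.11 with shEVI1-2532. With TMM computed without the members it was 0.21 and 0.13 with shEVI1-2531 at day 3 and day 6 and 0.40 with shEVI1-2532 at day 6. The lowest and highest share of counts were 12.5 and 22.6% of protein-coding and 12.7 and 22.5% of nuclear-encoded counts in the inhibitor libraries, and 17.1 and 24.8%, and 17.3 and 24.9%, in the knockdown libraries. With single libraries left out, the slope of RPS27L ran from -0.010 (without DMSO at 48 h) to 0.72 (without DMSO at 12 h), and that of DDIT4, an inhibitor of mTORC1 with a slope of -0.56, from -1.45 to 0.34 by the same libraries. Of 7421 alternative values of single genes, these 2 were the ones that turned direction with a call on either side, 254 changed sign with no call on either side, 468 lost and 164 gained their call. The causes were not tested.

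No paired analysis was possible because each condition has 1 library, the hour and the day being in the models already. The fits have 2 to 4 residual degrees of freedom, so that 1 library can decide a count, and the leave-one-out fits assume that a lone library varies like the others. The single-library and added alternatives of the inhibitor fits, and the scalings of the ratios, were chosen after seeing the data. RPS10, RPL36A and RPL17 have small counts, and strand and pseudogenes limit them further.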
